A study of Mus musculus with 12 samples.

Results

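The 9 complement genes described here are the C1q chains C1qa, C1qb and C1qc, the central components C3 and C4b, the anaphylatoxin receptors C3ar1 and C5ar1, and the integrin chains Itgam and Itgb2. They were taken by symbol from the gene tables of oligodendrocyte precursor cells (OPCs) and neurons, and all 9 were found among the 30165 genes of the OPC table and the 17918 genes of the neuron table. The 12 RNA-seq libraries were made from mouse cortex, with 3 libraries for each of the 4 groups (OPC ctl, OPC dKO, neuron ctl and neuron dKO), each made from a pool of 2 mice. In dKO mice, the tamoxifen-inducible NG2-CreERT2 driver deletes floxed exons of Cacna1c and Cacna1d, which encode the L-type calcium channels Cav1.2 and Cav1.3, and tamoxifen was given at 100 mg/kg on postnatal days 7 and 8. The ctl libraries are labelled WT, and the sources used here do not state whether ctl mice carried Cre or floxed alleles, or the age at collection. OPCs were enriched on magnetic beads for CD140, NG2 and O4. Neurons were enriched by removal of cells that bound beads for ACSA-2, CD31, CD11b and O4, and CD11b is the protein encoded by Itgam. The question was how the level of these genes differed between dKO and ctl mice in each cell type.

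Complement is a cascade of plasma and tissue proteins that tags surfaces for removal and recruits immune cells. C1q, built from A, B and C chains, binds a target and starts the classical pathway, in which C4 and then C3 are cleaved. Fragments of C3 are read by complement receptor 3, the pair of Itgam and Itgb2, while the small fragments C3a and C5a act through C3ar1 and C5ar1. In the brain, microglia are the main source of C1q and carry these receptors, and the pathway is known for its part in synapse removal.

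The C1q genes sit side by side, on the minus strand of chromosome 4 in the deposited coordinates: C1qb from 136607440 to 136613498, C1qc from 136617115 to 136620376, and C1qa from 136623228 to 136626114. C4b (34947354 to 34962856) and C3 (57510970 to 57535136) are on chromosome 17, C3ar1 on chromosome 6, C5ar1 and Itgam on chromosome 7, and Itgb2 on chromosome 10. All 9 are protein coding. These coordinates are not those of GRCm38, since 0 of 9 starts were equal to RefSeq's on that build, and the submitters' processing notes name mm39. Upstream windows of 250 bases, ending at the start of the gene, were taken from RefSeq (GRCm38.p6) and had entries for 6 of the 9 genes. C1qa, C4b and Itgb2 had none. The windows were searched on both strands for AGGAAGT, a form of the motif bound by the ETS family, to which the myeloid factor PU.1 belongs. It was present in the windows of C1qb, C1qc and C5ar1 and not in those of C3, C3ar1 and Itgam, against 8.80% of all genes with an entry. C3ar1, which had the largest log2 fold change of the 9 genes in OPCs, and Itgam, which also had one above 0, had no match. The windows with a match are printed with those of C3ar1 and C3, as examples without one that were higher and not higher in dKO OPCs. The sequences run in the direction of transcription, and the capitals mark the motif, here in its reverse complement. They are at chr4:136886201-136886450 for C1qb, chr4:136892915-136893164 for C1qc, chr7:16259339-16259588 for C5ar1, chr6:122856158-122856407 for C3ar1 and chr17:57228137-57228386 for C3, all on the minus strand.
C1qb: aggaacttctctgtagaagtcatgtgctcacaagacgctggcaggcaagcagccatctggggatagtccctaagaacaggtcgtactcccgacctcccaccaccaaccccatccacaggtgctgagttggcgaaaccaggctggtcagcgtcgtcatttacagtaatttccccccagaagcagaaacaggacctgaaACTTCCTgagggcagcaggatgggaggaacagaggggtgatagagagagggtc
C1qc: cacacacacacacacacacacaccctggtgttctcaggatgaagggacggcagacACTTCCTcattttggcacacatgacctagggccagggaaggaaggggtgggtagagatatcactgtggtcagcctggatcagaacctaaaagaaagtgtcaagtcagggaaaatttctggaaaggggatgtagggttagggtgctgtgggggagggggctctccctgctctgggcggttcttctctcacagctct
C5ar1: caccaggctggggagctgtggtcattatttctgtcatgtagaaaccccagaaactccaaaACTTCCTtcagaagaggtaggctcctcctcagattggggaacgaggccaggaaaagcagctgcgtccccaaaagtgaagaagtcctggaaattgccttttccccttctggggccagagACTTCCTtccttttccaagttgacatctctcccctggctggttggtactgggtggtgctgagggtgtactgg
C3ar1: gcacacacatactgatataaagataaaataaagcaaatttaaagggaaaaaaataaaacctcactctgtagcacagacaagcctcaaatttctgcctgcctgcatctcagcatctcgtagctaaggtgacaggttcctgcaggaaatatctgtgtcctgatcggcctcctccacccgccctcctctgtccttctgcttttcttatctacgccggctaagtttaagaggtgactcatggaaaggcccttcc
C3: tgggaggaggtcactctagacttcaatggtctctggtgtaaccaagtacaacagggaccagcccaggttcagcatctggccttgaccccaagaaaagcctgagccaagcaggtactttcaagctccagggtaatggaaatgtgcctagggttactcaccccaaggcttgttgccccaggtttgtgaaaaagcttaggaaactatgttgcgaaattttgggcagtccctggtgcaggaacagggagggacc
The match began 53 bases before the start of C1qb and 195 bases before that of C1qc, and C5ar1 had 2 matches, at 190 and 72 bases. These letters do not show that any factor was bound.

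Library totals ranged from 14935963 to 19812274 counts in OPCs and from 15052901 to 16344585 in neurons. In OPCs, the targeted genes Cacna1c and Cacna1d were lower in dKO, with values of -0.44 (edgeR adjusted p = 0.349) and -0.55 (edgeR adjusted p = 0.531) on the log2 scale. OPC dKO replicate 2 stood apart: it had 14983 Xist reads and 0 reads of 4 Y-linked genes, while the other 5 OPC libraries had 3 to 17 Xist reads and carried Y-linked reads. It also had the highest summed astrocyte markers, 5826 CPM (counts scaled to library size) against 1129 to 3047 in the others. Among neuron libraries, ctl replicate 1 and dKO replicate 1 carried Y-linked reads and the other 4 had few or none. Against their labels, the OPC libraries held 48390 to 84060 CPM of 10 oligodendrocyte markers and 1470 to 2807 CPM of 10 OPC markers. The neuron libraries held 7766 to 18310 CPM of 10 endothelial markers and 605.8 to 1412 CPM of 10 neuron markers.

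In OPC libraries, the C1q chains, C3ar1 and C5ar1 were 2.46 to 3.32 times as high in dKO as in ctl mice by the edgeR fold change, and every dKO library lay above every ctl library for these 5 genes. Itgam and Itgb2 were higher in 2 dKO libraries than in any ctl library, but not in dKO replicate 2, and C3 and C4b overlapped between the groups. None of the 9 genes had an adjusted p under 0.05 by edgeR over the 17364 genes tested. By DESeq2, the 5 genes whose groups did not overlap passed at an adjusted p under 0.05 and the other 4 did not.

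C1qa, the A chain of C1q, had normalized counts (reads scaled between libraries by TMM) of 406.8, 428.7 and 540.1 in ctl and 1560, 701.4 and 1812 in dKO OPC libraries. The dKO libraries were all higher, with replicate 2 closest to ctl. The group means were 459 ± 71.5 and 1358 ± 582 (SD, n = 3 each), a log2 fold change of 1.57 with a standard error (SE) of 0.31 (edgeR adjusted p = 0.246, DESeq2 adjusted p = 0.000623). C1qb, the B chain, had 420.8, 488.3 and 577.7 in ctl and 1453, 671.4 and 1557 in dKO libraries. Its groups were again separate, with dKO replicate 2 the lowest of the dKO libraries, and its log2 fold change was 1.31 (SE 0.29, edgeR adjusted p = 0.255, DESeq2 adjusted p = 0.00463). C1qc, the C chain, had 394.6, 406.1 and 495.2 in ctl and 1192, 555.3 and 1442 in dKO libraries. Its pattern was that of the other chains, with a log2 fold change of 1.30 (SE 0.31, edgeR adjusted p = 0.283, DESeq2 adjusted p = 0.00823).

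The receptor for C3a, C3ar1, had normalized counts of 90.12, 85.74 and 82.53 in ctl and 313.7, 122.5 and 424.7 in dKO OPC libraries. The ctl libraries were nearly equal and all dKO libraries were above them. Its log2 fold change, 1.73 (SE 0.40), was the largest of the 9 genes (edgeR adjusted p = 0.277, DESeq2 adjusted p = 0.00399). C5ar1, the receptor for C5a, had 26.25, 39.3 and 28.21 in ctl and 104.6, 47.18 and 130.5 in dKO libraries. The groups did not overlap, although dKO replicate 2 was close to ctl replicate 2. The log2 fold change was 1.59 (SE 0.41, edgeR adjusted p = 0.290, DESeq2 adjusted p = 0.0243).

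Itgam, the alpha chain of complement receptor 3, had normalized counts of 60.37, 57.16 and 111.8 in ctl and 175.9, 67.14 and 242.8 in dKO OPC libraries. The dKO replicate 2 library lay inside the ctl range. Its log2 fold change was 1.08 (SE 0.46, edgeR adjusted p = 0.432, DESeq2 adjusted p = 0.273), and 0.66 without dKO replicate 3. Its unadjusted edgeR p was 0.0463, and it was not under 0.05 without ctl replicate 1 or 2 or without dKO replicate 1 or 3. Itgb2, the beta chain shared by the leukocyte integrins, had 71.74, 45.25 and 91.93 in ctl and 168.1, 43.55 and 238.6 in dKO libraries. Here dKO replicate 2 was the lowest of all 6 libraries. The log2 fold change was 1.10 (SE 0.54, edgeR adjusted p = 0.481, DESeq2 adjusted p = 0.368), and 0.59 without dKO replicate 3.

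C3, on which the complement pathways converge, had normalized counts of 146.1, 104.8 and 270.6 in ctl and 131, 191.4 and 161.5 in dKO OPC libraries. The dKO values all lay within the ctl range, and the log2 fold change was -0.11 (SE 0.34, edgeR adjusted p = 0.927). C4b, the classical pathway component cleaved before C3, had 948.4, 1280 and 1013 in ctl and 1045, 900.1 and 1751 in dKO libraries. The groups overlapped, with dKO replicate 3 the highest library and dKO replicate 2 the lowest, and the log2 fold change was 0.19 (SE 0.24, edgeR adjusted p = 0.802). Without ctl replicate 3 the value of C3 was 0.35, and without dKO replicate 3 that of C4b was -0.16. C4b shares most of its sequence with C4a, so reads of one can be counted for the other. The normalized counts of C4a averaged 31.4 ± 10.7 in ctl and 29.3 ± 8.40 in dKO OPC libraries (SD, n = 3 each).

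**Figure D1:**
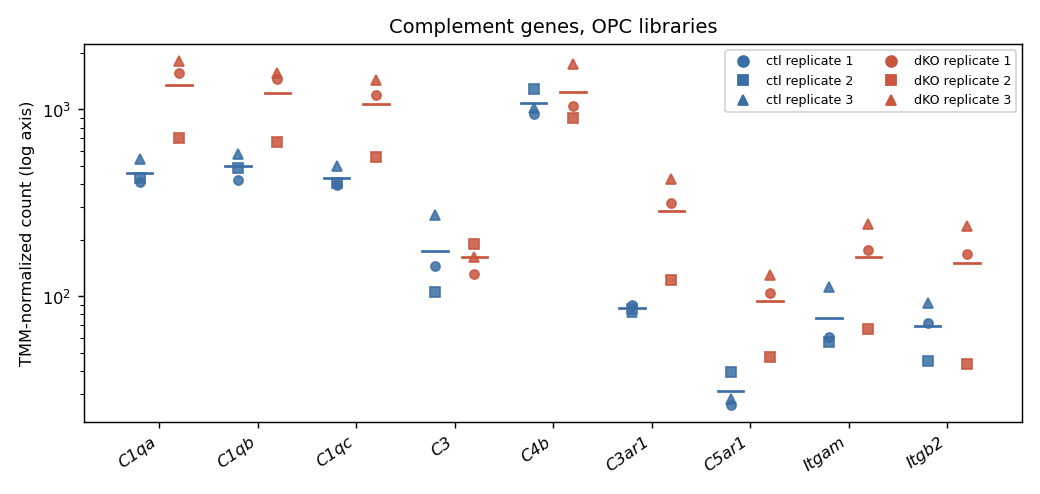
TMM-normalized counts of the 9 complement genes in the 6 OPC libraries, on a log axis, with a symbol for each library and a bar at each group mean. For the C1q chains, C3ar1 and C5ar1 the dKO symbols sit above the ctl symbols, with dKO replicate 2 (square) nearest to ctl, whereas for C3, C4b, Itgam and Itgb2 they overlap.

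In all, 8 of the 9 genes were higher and 1 was lower in dKO OPCs, where 50.8% of all genes tested were higher, and their median on the log2 scale was 1.30 beside 0.00547 over all genes. By edgeR, 6 of 9 had an unadjusted p under 0.05, all higher in dKO, beside 6.27% of all genes tested. Itgam, 1 of the 6, did not keep this when some single libraries were left out. The groups did not overlap for 5 of 9, all higher, beside 7.41% of all genes. The adjusted threshold was passed by 0 of 9 genes with edgeR and by 5 of 9 with DESeq2, beside 0.00576% of all genes with edgeR and 1.69% with DESeq2 (1.07% in the higher direction). Without dKO replicate 2, the library with 14983 Xist reads, C1qa, C1qb, C1qc, C3ar1 and C5ar1 also passed with edgeR (adjusted p of 0.00393, 0.00439, 0.00439, 0.00491 and 0.0299). In that fit 199 of all genes passed, against 1 with all libraries, and 1.05% of all genes tested passed in the higher direction.

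Microglia markers differed between the groups in the same direction. Of 20 markers, 19 were higher in dKO OPCs with an unadjusted p under 0.05, beside 6.27% of all genes tested. The summed level of the 20 markers was 381.5 to 434.2 CPM in ctl and 451 to 1335 CPM in dKO libraries. By DESeq2, 15 of the 20 passed at an adjusted p under 0.05, all higher, beside 1.07% of all genes. By edgeR 0 of 20 passed. The median log2 fold change of the 20 was 1.33. Csf1r, the receptor that microglia need to survive, had a log2 fold change of 1.41 (edgeR adjusted p = 0.292, DESeq2 adjusted p = 0.0135), and the purinergic receptor gene P2ry12 had 1.32 (edgeR adjusted p = 0.312, DESeq2 adjusted p = 0.0403). The markers of the list with the smallest p were Fcer1g, Ctss and Tyrobp, with log2 fold changes of 1.42, 1.42 and 1.33 (DESeq2 adjusted p = 0.00244, 0.00221 and 0.00637). The exception was Sall1, a transcription factor gene, whose normalized counts averaged 1241 ± 152 in ctl and 1206 ± 107 in dKO libraries (SD, n = 3 each). None of the 20 was at 0 in all libraries. Astrocyte markers were also higher, with 9 of 10 at an unadjusted p under 0.05, beside 6.27% of all genes tested. By DESeq2, 5 of 10 were past the adjusted threshold, beside 1.07% of all genes. The astrocyte markers summed to 1129 to 2007 CPM in ctl and 1937 to 5826 CPM in dKO libraries. Of the 10 oligodendrocyte markers, 8 had a log2 fold change below 0, where 50.8% of all genes tested were above 0. Of the 8, 3 had an unadjusted p under 0.05, beside 5.27% of all genes that were lower, and 1 was past the adjusted threshold by DESeq2. The oligodendrocyte markers summed to 65560 to 76660 CPM in ctl and 48390 to 84060 CPM in dKO libraries. The part of astrocyte and oligodendrocyte RNA in the result was not tested. Monocyte and neutrophil markers summed to at most 3.30 CPM in any OPC library. In these bulk samples, more cells of a type and more RNA per cell cannot be told apart.

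The C1q chains were also set against the microglia markers of the same library. The summed reads of C1qa, C1qb and C1qc per 100 microglia marker reads were 17.7, 19.8 and 21.3 in ctl and 23.9, 24.5 and 20.6 in dKO OPC libraries. The groups overlapped, with means of 19.6 ± 1.81 and 23.0 ± 2.07 (SD, n = 3 each), and the log2 difference was 0.23 (exact two-sided permutation p = 0.2, where 0.1 is the smallest possible). Leaving Sall1 out of the marker list, an alternative chosen after seeing the data, gave 0.083. An edgeR fit was also run with a microglia covariate, the mean log2 CPM of the markers rather than their sum. The log2 fold change in it was 0.42 for C1qa (edgeR adjusted p = 0.403), 0.28 for C1qb (adjusted p = 0.671) and 0.17 for C1qc (adjusted p = 0.778). In that fit, 2 members had an unadjusted p under 0.05, C1qa and Itgb2, whose value was -1.05 (edgeR adjusted p = 0.330), and no member passed the adjusted threshold. Of all genes tested in that fit, 6.65% were higher and 4.31% lower at an unadjusted p under 0.05.

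**Figure D2:**
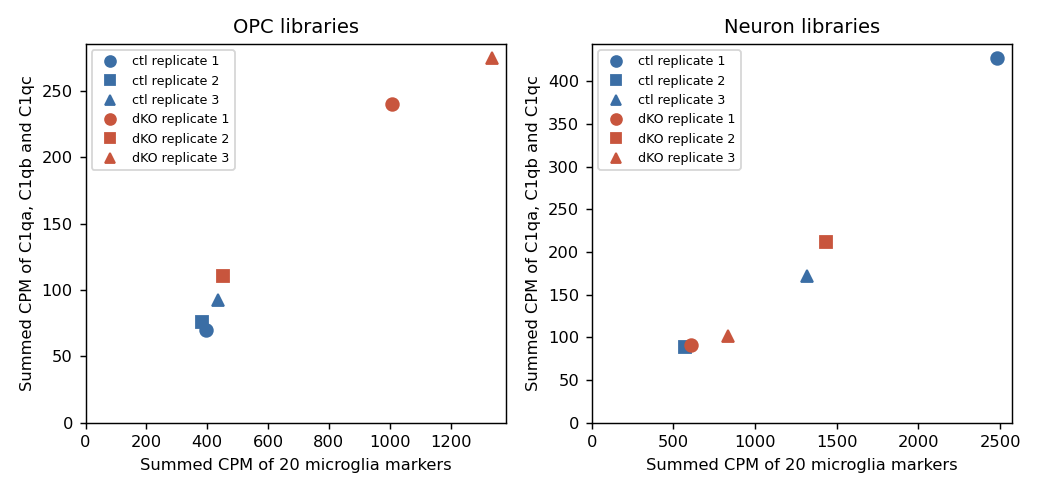
Summed CPM of C1qa, C1qb and C1qc against summed CPM of 20 microglia markers in each OPC library (left) and neuron library (right), with linear axes from 0. In OPCs the ctl libraries lie at 69.9 to 92.3 CPM of C1q and the dKO libraries at 110.3 to 275.2, and in neurons ctl replicate 1 has the most of both.

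Taken singly, C1qa, C3ar1 and C4b separated the groups in their ratio to the microglia markers, C1qa and C3ar1 in the higher direction, beside 0.213% of all genes tested, and C4b in the lower one, beside 44.0%. C1qa had 5.88, 6.43 and 7.12 reads per 100 marker reads in ctl and 8.86, 8.90 and 7.77 in dKO OPC libraries. C3ar1 had 1.30, 1.29 and 1.09 in ctl and 1.78, 1.55 and 1.82 in dKO libraries. For both genes all dKO libraries were higher (exact permutation p = 0.1 each, the smallest possible). C4b had the opposite order, with 13.7, 19.2 and 13.4 reads per 100 marker reads in ctl and 5.93, 11.4 and 7.50 in dKO libraries, all of them lower (exact permutation p = 0.1). The C4b counts themselves overlapped between the groups, with a log2 fold change of 0.19, while the marker sum was higher in every dKO library, and the share of 44.0% means that its lower ratio does not set it apart from other genes. Without Sall1 in the marker list, C1qa no longer separated the groups, with 7.06, 8.16 and 8.38 in ctl and 9.51, 10.3 and 8.23 in dKO libraries (exact permutation p = 0.2). C3ar1 and C4b still did (exact permutation p = 0.1 each), although the log2 difference of C3ar1 was 0.34 in place of 0.49. For C1qb, C1qc, C3, C5ar1, Itgam and Itgb2 the ratios of the groups overlapped, with exact permutation p of 0.2 to 0.8. These ratios follow from the same libraries and marker list, and p-values were not adjusted over the 9 genes.

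**Figure D3:**
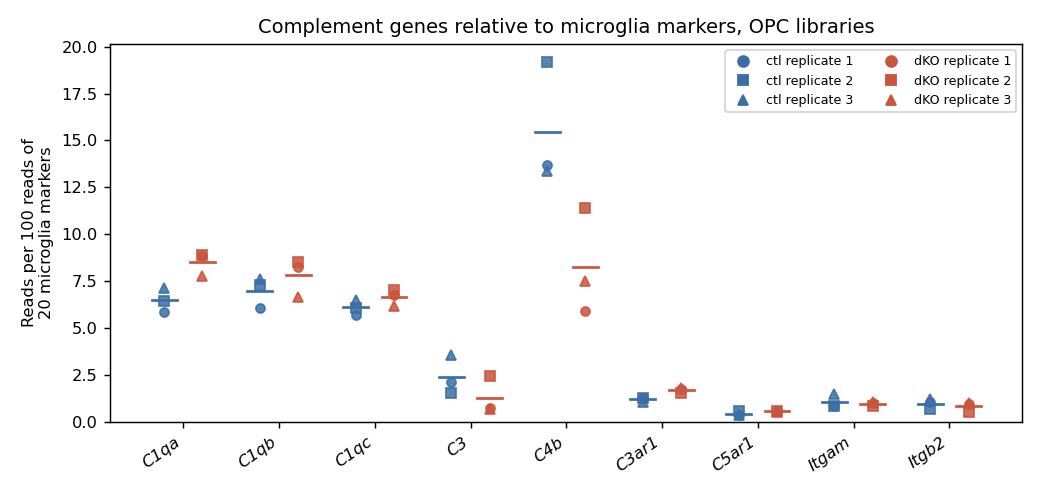
Reads of each complement gene per 100 reads of 20 microglia markers in the 6 OPC libraries, on a linear axis from 0, with bars at the group means. C1qa and C3ar1 are higher in all dKO libraries than in all ctl libraries, and C4b, whose own counts overlap between the groups, is lower relative to the markers, but for C1qa this does not hold without the marker Sall1.

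The pattern of C1qa over the 6 OPC libraries was shared by the other chains. By Pearson correlation of log2 CPM, a description over 6 libraries of both genotypes, the tested genes most like C1qa were Plscr3, Tyrobp, C1qb, C1qc and Rpn2 (r = 0.9987 to 0.9956). The value was 0.979 for C3ar1, 0.9638 for C5ar1, 0.9161 for Itgam and 0.8395 for Itgb2, against 0.5181 for C4b and -0.030 for C3. In neurons the genes most like C1qa were P2ry13, Fcgr3, Orai3, Ctss and Siglech (r = 0.991 to 0.9857), of which 3 are on the microglia list, and C1qb and C1qc had values of 0.9807 and 0.9788, beside 0.9542 for C3ar1, 0.9097 for Itgam, 0.7694 for C4b, 0.7135 for C5ar1 and 0.6202 for Itgb2. The libraries share their scaling, and no p is given.

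Most other complement genes in OPCs gave small differences. Of 52 listed proteases, soluble components, regulators and further receptors, 32 were tested, and 1 was higher and 1 lower in dKO OPCs at an unadjusted p under 0.05, beside 6.27% and 5.27% of all genes. Their median log2 fold change was 0.18. The higher one was Itgax, the integrin alpha chain of complement receptor 4 and a partner of Itgb2, with normalized counts of 1.75, 2.38 and 1.05 in ctl and 16.6, 28.1 and 20.3 in dKO libraries. Pooled over libraries it had 5 reads in ctl and 67 in dKO, a ratio of 12.9 after scaling (exact binomial 95% interval 5.25 to 40.9, counting error only). It passed the filter on low counts through the dKO libraries, so no p is given for it, and the count of 1 supports nothing. The lower one was Megf10, an engulfment receptor that binds C1q (-0.31, edgeR adjusted p = 0.432).

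Among the proteases and soluble components, 0 of 9 tested genes had an unadjusted p under 0.05. The smallest p values belonged to Colec11, a lectin that starts the lectin pathway (-0.86), C1s1, a protease of the C1 complex (0.30, adjusted p = 0.632), and Hc, which encodes C5 (0.34, adjusted p = 0.666). Colec11 did not pass the filter on low counts without ctl replicate 1, so no p is given for it. Among the regulators it was 0 of 16, and by DESeq2 none of the 9 and none of the 16 passed the adjusted threshold. The smallest p values of that list belonged to the sushi-domain genes Csmd3 (-0.30, adjusted p = 0.470) and Sez6l2 (-0.45, adjusted p = 0.476). Of the further receptors, Lrp1, which takes up many ligands, had a value of 0.41 (adjusted p = 0.499).

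In neuron libraries, all 8 genes tested were lower in dKO neurons, with edgeR fold changes of 1.41 to 5.06 in favour of ctl, and the groups overlapped for every gene. The adjusted threshold was passed by 0 of 8 with edgeR and with DESeq2, beside 0.614% of all genes with DESeq2. Groups that did not overlap, lower in dKO, were seen for 7.82% of all genes and 0 of 8 members. C4b and Itgb2 had an unadjusted p under 0.05 by edgeR, 2 of 8 genes, beside 4.04% of all 14352 genes tested that were lower. The median log2 fold change was -0.77 beside 0.00748 over all genes tested, and 48.9% of all genes tested had a value below 0.

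C1qa had normalized counts of 1649, 321 and 761.8 in ctl and 396.7, 854.9 and 414.6 in dKO neuron libraries. The ctl libraries held both the highest and the lowest value, and the log2 fold change was -0.71 (SE 0.54, edgeR adjusted p = 0.717). C1qb had 2640, 618.6 and 1093 in ctl and 595.6, 1329 and 563 in dKO libraries, with a log2 fold change of -0.81 (SE 0.52, edgeR adjusted p = 0.685). C1qc had 2373, 439.6 and 834.7 in ctl and 435.9, 1126 and 618.3 in dKO libraries, with a log2 fold change of -0.74 (SE 0.58, edgeR adjusted p = 0.725). For each chain ctl replicate 1 was the highest library, and without it the values were 0.04 for C1qa, -0.05 for C1qb and 0.19 for C1qc.

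C4b had normalized counts of 213.3, 44.74 and 54.65 in ctl and 5.88, 51.12 and 4.10 in dKO neuron libraries. A pair of dKO libraries was far below ctl, and dKO replicate 2 lay within the ctl range. The log2 fold change was -2.34 with an SE of 0.98 (edgeR adjusted p = 0.546, DESeq2 adjusted p = 0.251). When ctl replicate 1 was left out it was -1.28, when dKO replicate 1 was left out -1.90, and when dKO replicate 3 was left out -1.86, and in none of these was the unadjusted p under 0.05. When dKO replicate 2 was left out it was -4.35 (edgeR adjusted p = 0.381). Per 100 microglia marker reads, C4b had 0.551, 0.504 and 0.266 in ctl and 0.0622, 0.228 and 0.0314 in dKO libraries. On that scale the groups did not overlap (exact permutation p = 0.1, the smallest possible), for 1 of 8 members tested beside 0.348% of all genes in the lower direction, and the other members overlapped. C4a was not analysed in neurons. C3 did not pass the filter of a mean normalized count of 10, with estimated counts of 9, 0 and 2 in ctl and 5, 4 and 1 in dKO libraries.

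Itgb2 had normalized counts of 866.3, 434.8 and 1196 in ctl and 511.4, 445.9 and 292.8 in dKO neuron libraries. The groups overlapped through ctl replicate 2, and the log2 fold change was -0.997 (SE 0.35, edgeR adjusted p = 0.521, DESeq2 adjusted p = 0.210). Without ctl replicate 3 it was -0.64 and without dKO replicate 3 it was -0.80, and in both cases the unadjusted p was no longer under 0.05. Itgam, whose protein was a target of the depletion beads, had 547.4, 141 and 467.2 in ctl and 102.9, 374.9 and 169.9 in dKO libraries. Its reads were present in every neuron library, the groups overlapped, and the log2 fold change was -0.83 (SE 0.56, edgeR adjusted p = 0.692). It was -0.49 without ctl replicate 1 and -1.49 without dKO replicate 2, where its unadjusted p was under 0.05. C3ar1 had 205.2, 49.61 and 68.57 in ctl and 48.98, 106 and 43 in dKO libraries (-0.70, SE 0.60, edgeR adjusted p = 0.744), and without ctl replicate 1 its value was 0.16. C5ar1 had 74.14, 43.77 and 35.36 in ctl and 25.47, 44.49 and 38.90 in dKO libraries (-0.49, SE 0.47, edgeR adjusted p = 0.770), and without ctl replicate 1 its value was -0.12. Both receptors overlapped between the groups.

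**Figure D4:**
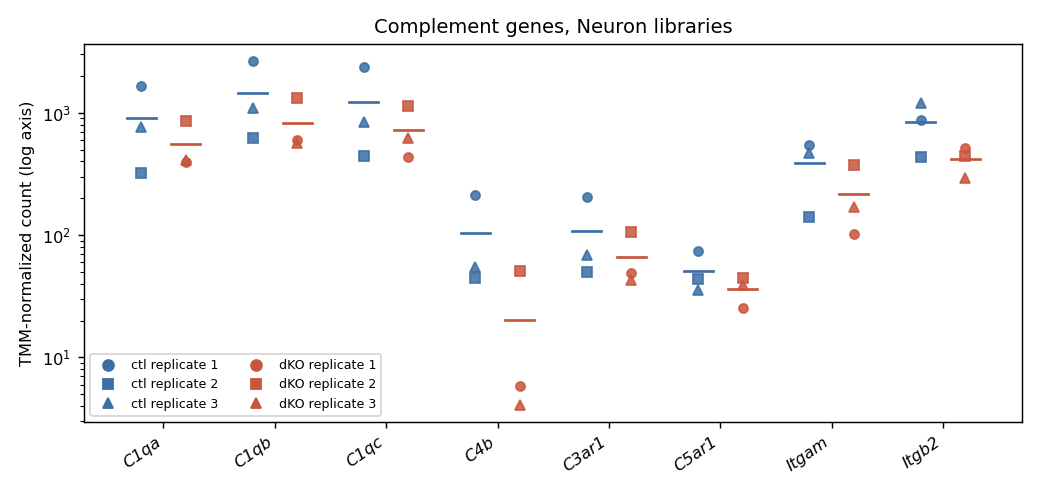
TMM-normalized counts of the 8 complement genes tested in the 6 neuron libraries, on a log axis, with a symbol for each library and a bar at each group mean. The ctl and dKO symbols overlap for every gene, and ctl replicate 1 is the highest library for 7 of the 8 genes, Itgb2 being the exception.

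Microglia markers varied in the neuron libraries as C1q did. Their summed level was 2480, 568.4 and 1315 CPM in ctl and 605.1, 1437 and 835 CPM in dKO libraries, and summed C1q was 426.7, 88.3 and 172.2 CPM in ctl and 91.5, 212 and 102.2 CPM in dKO libraries. Both sums were highest in ctl replicate 1 and lowest in ctl replicate 2. Of the 20 markers, 19 were lower in dKO neurons, where 48.9% of all genes tested had a value below 0. None of the 20 had an unadjusted p under 0.05 by edgeR or an adjusted p under 0.05 by DESeq2. Their median log2 fold change was -0.64, with -0.71 for P2ry12 and -0.55 for Csf1r. The smallest p values belonged to Fcer1g (-0.88, adjusted p = 0.558), Aif1 (-0.90, adjusted p = 0.641) and Selplg (-0.70, adjusted p = 0.645). C1q reads per 100 marker reads were 17.2, 15.5 and 13.1 in ctl and 15.1, 14.8 and 12.2 in dKO libraries. The groups overlapped, with a log2 difference of -0.12 (exact two-sided permutation p = 0.4).

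Of the other complement genes, 29 were tested in neurons, and 1 was higher and 2 were lower at an unadjusted p under 0.05, beside 4.96% and 4.04% of all genes. The lower ones were Itgax and Cr1l. Itgax had normalized counts of 102.6, 30.15 and 153.2 in ctl and 4.90, 4.73 and 0 in dKO neuron libraries. Pooled over libraries it had 275 estimated counts in ctl and 10 in dKO, so ctl was 28.5 times as high after scaling (exact binomial 95% interval 15.3 to 60.1, counting error only). It passed the filter through the ctl libraries, so no p is given for it, and its place in the count of 2 supports nothing. Cr1l, the rodent regulator Crry, had a value of -0.40 on the log2 scale (adjusted p = 0.524). Sez6, a sushi-domain protein of neurons, had one of 0.75 (adjusted p = 0.521). The soluble components C1ra, C1s1 and Cfb had values of -1.02, -0.79 and -1.18 (adjusted p = 0.554, 0.592 and 0.723). Without ctl replicate 1 these were -0.41, -0.28 and -0.06, and without dKO replicate 2 that of Cfb was -2.79. Among the receptors, Cd93 had -0.35 (adjusted p = 0.596) and Cr2 had -1.01 (adjusted p = 0.653). Endothelial markers were also lower, and summed to 15630 to 18310 CPM in ctl and 7766 to 14380 CPM in dKO libraries. Of these markers, 3 of 10 were lower at an unadjusted p under 0.05, beside the 4.04% of all genes. Of the oligodendrocyte markers, 10 of 10 had a value below 0 in dKO neurons (median -0.88), 1 of them at an unadjusted p under 0.05, and of the astrocyte markers 8 of 10 did (median -0.39), 2 of them at that threshold. Of the neuron markers, 9 of 10 had a value above 0 (median 0.53), 1 of them at that threshold. Of the monocyte and neutrophil markers, all 6 tested had a value below 0 (median -0.66), 1 of them at that threshold. They summed to 31.71 to 72.47 CPM in ctl and 21.31 to 43.98 CPM in dKO libraries. The part of RNA from these cell types in the complement values was not tested.

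Compared per length within a cell type, the chains of C1q had the highest mean levels of the members in ctl libraries. In ctl OPCs, FPKM (fragments scaled by gene length and depth) was 25.9 ± 4.21 for C1qb and 25.1 ± 3.95 for C1qa, which did not differ beyond their spread. C1qc followed at 12.7 ± 1.64 and overlapped with C4b at 10.8 ± 1.85 (SD, n = 3 each). The remaining genes lay between 1.92 ± 0.952 for C3 and 0.692 ± 0.162 for C5ar1, and each neighbour in that order overlapped with the next. C1qa FPKM was as high as or higher than that of 94.5% of the genes in ctl OPCs. In ctl neurons, TPM (transcript abundance scaled by length and to a fixed total) was 177 ± 138 for C1qb, 158 ± 140 for C1qc and 114 ± 90.1 for C1qa, all within their spread. Itgb2 had 32.5 ± 13.5, Itgam 9.02 ± 5.17, C3ar1 2.83 ± 2.36, C5ar1 2.41 ± 1.09, C4b 2.16 ± 2.06 and C3 0.0933 ± 0.101 (SD, n = 3 each). Itgb2 and Itgam did not overlap, and neither did C4b and C3. FPKM and TPM are different units from tables counted in different ways, so levels were not compared between cell types.

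The share of each chain in the summed C1q level was steadier than the level itself. In OPCs, C1qa made up 38.5% to 39.8% of the FPKM sum in ctl and 42.7% to 44.5% in dKO libraries. The dKO libraries were all higher. The shares of the other chains were lower in every dKO library, with 39.4% to 41.9% in ctl and 36.5% to 39.1% in dKO for C1qb, and 19.6% to 20.8% in ctl and 17.9% to 19.1% in dKO for C1qc. The shares sum to the whole, so a higher one lowers the others, and the levels of all 3 chains were higher in dKO OPCs. In neurons, the TPM shares over the 6 libraries were 23.3% to 28.4% for C1qa, 34.3% to 43.7% for C1qb and 31.5% to 39.8% for C1qc.

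**Figure D5:**
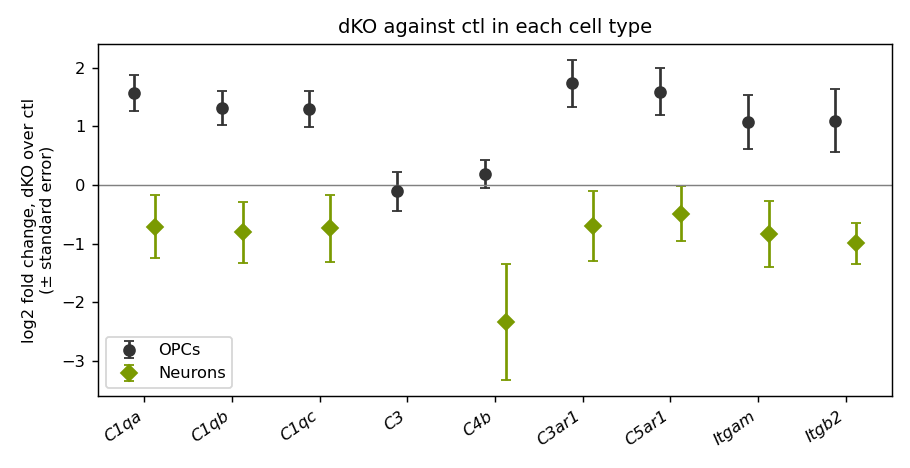
Log2 fold change of dKO over ctl with its standard error (edgeR) for each complement gene in OPCs (circles) and neurons (diamonds), with C3 not tested in neurons. Values in OPCs run from -0.11 for C3 to 1.73 for C3ar1, and those in neurons from -2.34 for C4b to -0.49 for C5ar1.

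All 8 genes tested in both cell types had a point estimate above 0 in OPCs and below 0 in neurons. These directions turned with 1 library for 4 of the 8: without ctl replicate 1 the neuron values were 0.04 for C1qa, 0.19 for C1qc and 0.16 for C3ar1, and without dKO replicate 3 the OPC value of C4b was -0.16. The difference between the cell types was not tested, since the tables were counted in different ways.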

How the data were processed

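The OPC table deposited by the authors holds raw read counts per Ensembl gene and FPKM values, and the neuron table deposited by the authors holds estimated counts, not all whole, and TPM values per RefSeq transcript. The study's methods name HISAT2, GRCm38 and featureCounts without naming a cell type. They were taken here to describe the OPC table, an assumption that does not hold for the build, since the OPC coordinates are not those of GRCm38. How the neuron values were made is otherwise not given in the sources used here. Estimated counts were summed per gene, rounded, and matched to symbols for 17794 of 17918 genes. A further 18 per-library columns and the authors' own fold changes and p-values were not used. Libraries were assigned by column name and sample title. dKO was compared with ctl within each cell type in edgeR 4.0.16 (R 4.3.3, quasi-likelihood test, no covariate), after a filter that kept genes averaging 10 or more TMM-normalized counts. P-values were adjusted by Benjamini-Hochberg over all genes tested, with a threshold of 0.05, and the SE was derived from the F statistic of each gene. DESeq2 1.42.0, other normalizations and filters, a microglia covariate, a replicate block and each library left out were alternatives. The scripts were tested on simulated data. The members and gene lists were chosen with earlier results of these data known. The text names all members, from each other list at most 3 genes ranked by p, 2 set microglia markers, the targeted genes and the 5 genes most like C1qa and C4b. Sall1 and C4a were named after their values were seen, and some listed genes are not reported here. Single-library values carry no interval for counting error, and replicates were no copies of each other. With 3 libraries against 3, an exact permutation p cannot go below 0.1.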

Additional observations from a re-analysis of the deposited data

Results flagged for a closer look

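Itgax, which encodes the integrin alpha chain that pairs with Itgb2 in complement receptor 4, was flagged by a search among the named genes. The search looked for groups that separated in opposite directions in the 2 cell types. Every dKO library was above every ctl library in OPCs, beside 7.41% of all genes tested. In neurons every dKO library was below every ctl library, beside 7.82% of all genes tested. The share of genes that did both was not computed. Pooled counts were 12.9 times as high in dKO as in ctl OPCs (exact binomial 95% interval 5.25 to 40.9) and 28.5 times as high in ctl as in dKO neurons (15.3 to 60.1), intervals that cover counting error only. In each cell type the gene passed the filter on low counts through its higher group, so no p is given. The difference between the cell types was not tested, and the 2 tables were counted in different ways. Mean normalized counts were 1.73 ± 0.669 in ctl and 21.7 ± 5.88 in dKO OPCs, and 95.3 ± 61.9 in ctl and 3.21 ± 2.78 in dKO neurons (SD, n = 3 each). Without OPC dKO replicate 2, Itgax did not pass the filter on low counts.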

How the results depend on the processing

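Single genes kept their direction and their side of the adjusted threshold in 658 of 709 alternative values, and 32 came to pass it. With DESeq2, 5 members and 293 genes passed the adjusted threshold in OPCs (0 and 1 by edgeR), 88 genes passed in neurons (0 by edgeR), and 6 other complement genes had an unadjusted p under 0.05 in neurons (3 by edgeR). Without the filter on low counts these were 4 members, 87 genes and 6 other complement genes in OPCs (2 with the filter) and 5 other complement genes in neurons. RLE size factors gave 1 other complement gene in OPCs. The microglia covariate gave 12 genes at the adjusted threshold, and 2 members and 7 other complement genes at an unadjusted p under 0.05 in OPCs (6 and 2 without it), and 1 member in neurons (2 without it). It turned the OPC log2 fold changes of C4b (-0.41), Itgam (-0.51), Itgb2 (-1.05), P2ry12 (-0.21), Csf1r (-0.074), C1s1 (-0.23) and Cbln3 (-0.79), and the neuron values of C1qa (0.0044), C1qc (0.0065) and P2ry12 (0.079). P2ry12 and Csf1r are among the markers that make up the covariate, so a shift towards 0 was built in for them. The causes of the other shifts were not tested. Without Sall1 among the markers, an alternative chosen after seeing the data, the log2 ratio to the markers became -0.021 for C1qc in OPCs and 0.010 for C5ar1 in neurons, where the groups overlapped in either case. Leaving out 1 library at a time gave 0 to 5 members and 1 to 199 genes at the adjusted threshold in OPCs, both highest without dKO replicate 2, and 1 to 8 other complement genes at an unadjusted p under 0.05. In neurons no member passed the adjusted threshold without any 1 library, while 0 to 5 members (0 without dKO replicate 3, 5 without ctl replicate 2) and 2 to 6 other complement genes had an unadjusted p under 0.05. Among all alternatives, the share of all genes at an unadjusted p under 0.05 was computed only for the microglia covariate in OPCs. The other counts at that threshold are therefore no results about the members. Ranges that changed sign were, in OPCs, C3 (-0.37 to 0.35) and C4b (-0.16 to 0.37), and in neurons C1qa (-1.16 to 0.038), C1qc (-1.20 to 0.19), C3ar1 (-1.225 to 0.16), P2ry12 (-1.13 to 0.075), Csf1r (-1.19 to 0.022) and C1ql3 (-0.63 to 1.14). The neuron values above 0 came without ctl replicate 1, except for C1ql3.

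Replicate numbers were not treated as pairs in the main fit. Deviations of same-numbered libraries correlated at -0.113, 0.155 and 0.12 in OPCs and at 0.167, -0.0667 and -0.0688 in neurons. With 3 libraries per group, such values cannot show whether the libraries were paired. With the replicate block, 1 member and 27 genes passed the adjusted threshold in OPCs and 4 other complement genes had an unadjusted p under 0.05. In neurons it gave 0 members and 5 other complement genes at an unadjusted p under 0.05. Not every library correlated best with its own number. Counts of 0 to 9 for C3 in neurons are too few to show a difference at this depth.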

Other observations

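Border macrophage markers, genes of the macrophages at brain surfaces and vessels, were higher in dKO OPCs for all 8 listed genes, 3 of them at an unadjusted p under 0.05, beside 50.8% and 6.27% of all genes tested. The median log2 value of the 8 was 0.66, and they summed to 57.4 to 66.7 CPM in ctl and 68.2 to 134.7 CPM in dKO OPC libraries. In neurons 7 of 8 were lower, beside 48.9% of all genes tested, with none at an unadjusted p under 0.05 by edgeR or an adjusted p under 0.05 by DESeq2.

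Of the C1q-like secreted proteins, which share the globular domain of C1q and include synapse organizers, 5 were tested in OPCs. All were higher in dKO mice, beside 50.8% of all genes tested, and none had an unadjusted p under 0.05 by edgeR or an adjusted p under 0.05 by DESeq2. C1ql2 had a log2 fold change of 1.16, with 0.84 for C1ql1 (adjusted p = 0.447 and 0.566 by edgeR). Cbln3 had 1.40, but it did not pass the filter on low counts without dKO replicate 1, so no p is given for it. Leaving out 1 library moved C1ql2 to between 0.79 and 1.77 (without ctl replicates 1 and 2) and C1ql1 to between 0.27 and 1.21 (without dKO replicates 2 and 3). Cbln3 moved to between 0.99 and 3.02 (without ctl replicates 3 and 1) in the fits where it was tested. In neurons 7 were tested, and C1ql2 (1.69), C1ql3 (0.68) and C1ql1 (-0.53) had the smallest p of the list. C1ql2 did not pass the filter on low counts there without dKO replicate 1, so its place in that order supports nothing. The value of C1ql2 was 2.79 without ctl replicate 1 and 1.12 without ctl replicate 3, that of C1ql3 was -0.63 without dKO replicate 1, and that of C1ql1 ranged from -1.05 (dKO replicate 1 left out) to -0.19 (dKO replicate 3 left out).

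The genes whose log2 CPM was most like that of C4b over 6 libraries were Top1, Sf3b1, Bag3, Gsk3b and Nfya in OPCs (r = 0.9915 to 0.9709), and Lpar4, Il4ra, Snx17, Gspt2 and Slc10a3 in neurons (r = 0.991 to 0.9835). None of these is on the microglia list.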
